A study of Mus musculus with 24 samples.

Results

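Hemoglobin and 2 further red cell genes were followed through healing skin wounds of diabetic mice treated with macrophage conditioned media. The 6 genes, found by symbol among the 54232 genes counted, were the adult alpha globins Hba-a1 and Hba-a2, the adult beta globins Hbb-bs and Hbb-bt, Alas2 and Slc4a1. All were described in 24 libraries of 5 groups. The mice were male C57BLKS/J animals of the genotype Lepr (db/db), which lack a working leptin receptor and are obese and diabetic, and the labels give their age as 17.5 weeks. Each received 6 mm full-thickness wounds on the back at 16 weeks under an alginate bandage, which was renewed on day 3, and the dorsal wound was taken on day 10. Bandages held medium conditioned by primary macrophages left as M0 (CM0, 4 libraries) or polarized to M1 (CM1, 4 libraries), M2a (CMA, 5 libraries) or M2c (CMC, 5 libraries), or were control bandages (Ctrl, 6 libraries). Every animal carried the db/db mutation, so no group shows a wound without diabetes. The sources used here do not say whether each library came from its own mouse, so p-values measure the spread between libraries.

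Adult hemoglobin pairs alpha with beta globin chains around heme and carries oxygen in red cells. Alas2 encodes the erythroid form of the enzyme that starts heme synthesis, and Slc4a1 encodes band 3, the chloride and bicarbonate exchanger of the red cell membrane. Mouse red cells lose their nucleus before they circulate, and young ones keep globin mRNA for a time, so RNA of a bleeding or well-perfused tissue usually holds some globin transcripts. Red cells that leave vessels in a wound are taken up by macrophages, which break heme down and recycle its iron. In bulk tissue, fewer cells of a type and less RNA per cell cannot be told apart.

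The globins are close copies, and the sequences below show how little separates them. In the GENCODE M21 annotation of GRCm38, Hba-a1 lies at chr11:32283511-32284465 and Hba-a2 at chr11:32296489-32297298, both on the plus strand. Hbb-bs lies at chr7:103826534-103828096 and Hbb-bt at chr7:103812524-103813996, both on the minus strand. The coding part is 426 bases in either alpha copy and 441 bases in either beta copy, and each pair differs at 1 coding base. Counted from 1 at the first base of the start codon, the substitution is C381T between Hba-a1 and Hba-a2 and C417T between Hbb-bs and Hbb-bt. Coding bases 351 to 410 of the alpha copies and 382 to 441 of the beta copies follow, with the differing base in capitals.
Hba-a1: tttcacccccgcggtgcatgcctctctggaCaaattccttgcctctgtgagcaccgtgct
Hba-a2: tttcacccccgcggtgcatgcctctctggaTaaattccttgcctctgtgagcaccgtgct
Hbb-bs: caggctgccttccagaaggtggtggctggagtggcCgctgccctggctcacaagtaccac
Hbb-bt: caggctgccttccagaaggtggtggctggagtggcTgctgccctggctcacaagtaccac
A coding read that misses the differing base fits both copies, while a read that covers it matches only 1 copy exactly. Of all 50-base windows, 67.5% of those of Hba-a1 and 86.9% of those of Hba-a2 occurred in the other copy. For the beta globins the shares were 65.8% of the windows of Hbb-bs and 58.3% of those of Hbb-bt. No 50-base window was shared between Hba-a1 and Hbb-bs. The sources used here do not say how reads that fit several places were counted, so a copy's level is uncertain and may leave out shared reads.

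The promoters of 3 globins and of Alas2 are shown as background, and their part in the levels was not tested. The 250 bases before the first RefSeq start site of each gene, read on its coding strand (RefSeq, GRCm38.p6), follow for Hba-a1 (chr11:32283422-32283671), Hbb-bs (chr7:103827929-103828178), Hbb-bt (chr7:103813924-103814173) and Alas2 (chrX:150547167-150547416). The first and last are on the plus strand and the beta globins on the minus strand, and each of these starts lies inside the GENCODE gene, which reaches further upstream. Capitals mark GATA motifs (NGATAA, where N is any base but C), CACCC and CCAAT, searched on both strands, and TATAA, searched on the coding strand. In Hbb-bt an ATTGG and a CCAAT lie side by side and appear as 1 run of capitals.
Hba-a1: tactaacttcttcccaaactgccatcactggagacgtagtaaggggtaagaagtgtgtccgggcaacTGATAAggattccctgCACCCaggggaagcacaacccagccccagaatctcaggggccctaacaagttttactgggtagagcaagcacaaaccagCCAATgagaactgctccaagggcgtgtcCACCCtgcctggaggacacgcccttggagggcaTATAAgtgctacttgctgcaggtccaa
Hbb-bs: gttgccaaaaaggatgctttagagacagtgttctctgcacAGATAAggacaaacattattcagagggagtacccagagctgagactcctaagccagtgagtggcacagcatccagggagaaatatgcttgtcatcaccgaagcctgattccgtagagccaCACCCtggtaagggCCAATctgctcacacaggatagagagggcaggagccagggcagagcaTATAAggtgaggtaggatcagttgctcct
Hbb-bt: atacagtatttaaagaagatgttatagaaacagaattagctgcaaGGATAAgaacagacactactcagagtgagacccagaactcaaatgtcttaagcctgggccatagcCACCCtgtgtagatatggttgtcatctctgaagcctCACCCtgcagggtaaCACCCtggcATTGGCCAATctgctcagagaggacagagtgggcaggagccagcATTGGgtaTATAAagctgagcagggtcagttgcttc
Alas2: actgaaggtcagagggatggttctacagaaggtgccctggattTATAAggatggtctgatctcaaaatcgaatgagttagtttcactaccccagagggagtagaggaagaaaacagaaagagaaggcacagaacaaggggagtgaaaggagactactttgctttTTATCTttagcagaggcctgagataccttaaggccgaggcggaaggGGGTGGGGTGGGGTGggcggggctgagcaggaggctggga
Each of the 3 globin promoters held all 4 motifs, with TATAA ending 23 to 25 bases before the start and a CCAAT further upstream. The GATA motif began 183 bases before the start in Hba-a1, 210 in Hbb-bs and 205 in Hbb-bt. Alas2 had a GATA match on the other strand, 3 CACCC matches on the other strand ending 26 bases before the start, a TATAA 203 bases before it, and no CCAAT in this window. Among 32851 mouse promoter windows of that length, 21.6% held a GATA motif, 52% CACCC, 33.8% CCAAT and 16% TATAA. Hba-a2 shared 98.7% of the 20-base windows of its promoter with that of Hba-a1 and is not printed.

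Globin reads were a small part of each library. Totals were 7267879 to 11985292 counts per library, and the 4 globins together took 322 to 2760 of them, which is 0.00404% to 0.0237%. Levels are given as CPM, counts scaled to a common library size, with library sizes adjusted by TMM. Per kilobase of exon, Hbb-bs averaged 78.8 ± 32.6 CPM over 24 libraries (SD), Hba-a1 45.4 ± 19.6, Hba-a2 23.6 ± 10.4, Hbb-bt 15.7 ± 6.43, Alas2 4.26 ± 0.57 and Slc4a1 0.142 ± 0.149. Ranges of 1 SD overlapped between neighbours in this order from Hbb-bs to Hbb-bt, and not below them. Since shared stretches shorten the part of a copy that can be told apart, this order holds for the counts as deposited.

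Hbb-bs, the more abundant beta globin here, was highest in wounds under CMC bandages. It was at 53.3, 114, 56.0, 87.1 and 121 CPM in the 5 CMC libraries. In the 6 Ctrl libraries the lowest was 22.8, the median 46.55 and the highest 95.5 CPM. All 5 CMC libraries lay above the Ctrl median and 2 above every control, but the groups overlapped. In the other media Hbb-bs was at 52.4, 38.8, 55.0 and 69.7 CPM under CM0, at 39.5, 53.7, 65.2 and 44.03 CPM under CM1, and at 41.4, 44.3, 88.7, 44.7 and 67.8 CPM under CMA. These 13 libraries lay within the range of the controls. The group means ran in the order CM1 (50.6 ± 11.4), Ctrl (52.7 ± 26.8), CM0 (54.0 ± 12.7), CMA (57.4 ± 20.5) and CMC (86.3 ± 31.5 CPM; SD), and the ranges of 1 SD of neighbours in that order overlapped.

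Hba-a1, the more abundant alpha globin, had the same outline. It was at 31.5, 74.7, 35.4, 54.1 and 69.1 CPM in the CMC libraries, against a lowest of 9.69, a median of 25.71 and a highest of 58.5 CPM in the Ctrl libraries. Again all 5 CMC libraries were above the Ctrl median and 2 above every control. CM0 libraries were at 24.4 to 47.2 CPM, CM1 libraries at 25.5 to 37.9 and CMA libraries at 24.3 to 51.9. The group means were 34.9 ± 9.37 CPM under CM0, 30.7 ± 5.79 under CM1, 36.5 ± 11.9 under CMA, 53.0 ± 19.4 under CMC and 29.2 ± 17.6 in Ctrl (SD).

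The second copies were lower. Hba-a2 averaged 22.2 ± 8.23 CPM under CMC (range 13.5 to 31.9) and 12.9 ± 7.71 CPM in Ctrl (3.63 to 25.8), with means of 14.5, 12.96 and 15.9 CPM under CM0, CM1 and CMA. Hbb-bt averaged 15.8 ± 5.23 CPM under CMC (range 9.87 to 21.2) and 8.89 ± 5.23 CPM in Ctrl (2.91 to 17.7), with means of 10.4, 10.3 and 10.0 CPM under CM0, CM1 and CMA. For both, 5 of 5 CMC libraries exceeded the Ctrl median and 2 exceeded every control. Ctrl 5 was the lowest of all 24 libraries for every globin, and the highest was CMC 2 for Hba-a1 and Hba-a2 and CMC 5 for Hbb-bs and Hbb-bt.

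**Figure D1:**
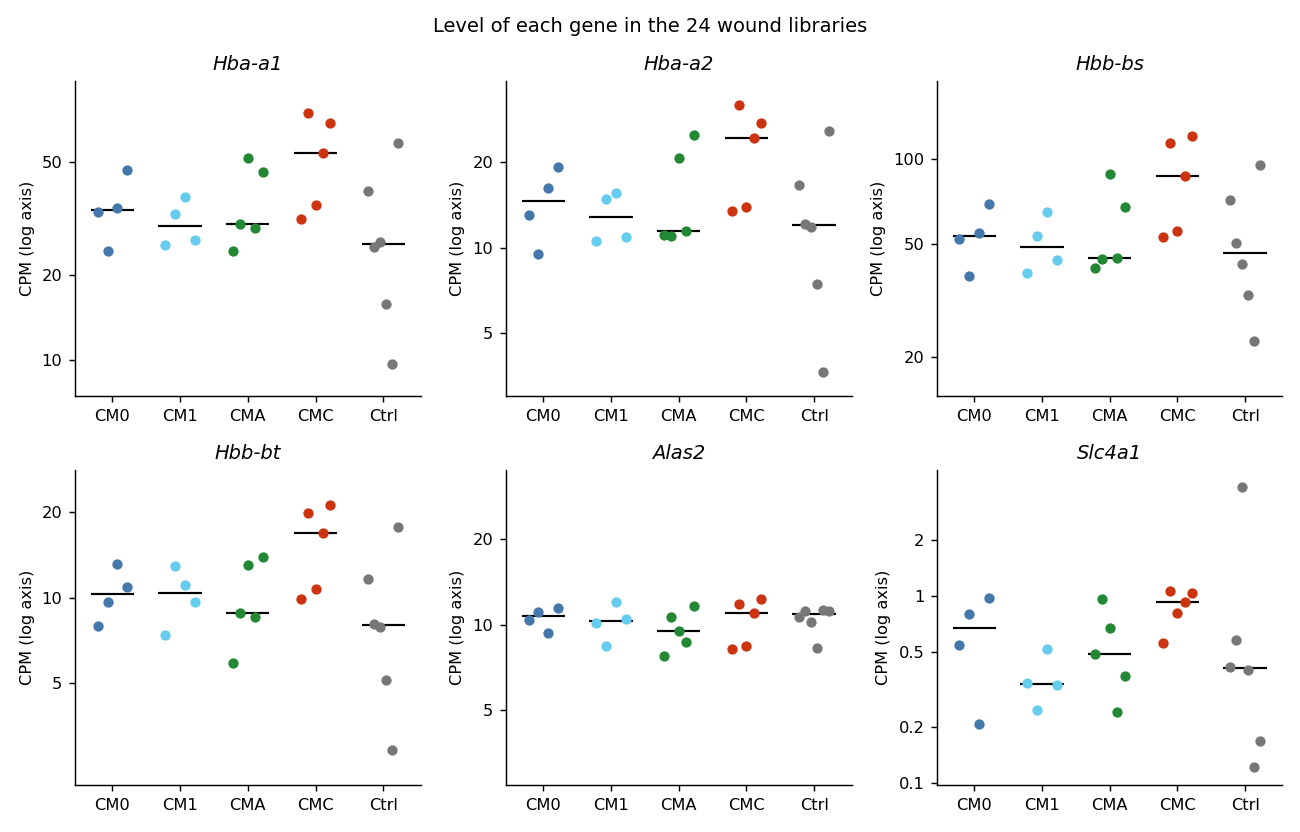
Level of the 4 globins, Alas2 and Slc4a1 in CPM (vertical log axes, which differ between panels) for each library, grouped as CM0, CM1, CMA, CMC and Ctrl; points are libraries and black bars group medians. The globin panels share a shape, with 5 of 5 CMC points above the Ctrl median. That count also holds for Slc4a1, at few reads, which has a single point at 3.84 CPM in Ctrl. Alas2 lies between 7.74 and 12.3 CPM in every group.

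Alas2 was nearly level across the wounds. It was at 8.19, 11.8, 8.38, 11.02 and 12.3 CPM in the CMC libraries, against a lowest of 8.24, a median of 10.87 and a highest of 11.3 CPM in the Ctrl libraries. The means ran in the order CMA (9.63 ± 1.55), CM1 (10.2 ± 1.495), CMC (10.35 ± 1.94), Ctrl (10.4 ± 1.16) and CM0 (10.6 ± 0.92 CPM; SD), and their ranges of 1 SD all overlapped. Its coefficient of variation (CV) over 24 libraries was 13.4%, where counting alone gives 10.1% at its mean of 97.3 reads. Alas2 lies at chrX:150547375-150570638 on the plus strand, within the span of Apex2 on the minus strand, and the annotated exons of the pair share 311 bases. The library kit does not mark the strand, so reads there cannot be assigned to one of the pair. Apex2, which encodes a DNA repair nuclease, averaged 19.4 ± 2.168 CPM.

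Slc4a1 (chr11:102348824-102366203, minus strand) was near the limit of detection. It had 5, 10, 7, 8 and 12 reads in the CMC libraries and 1 to 5 reads in 5 of 6 Ctrl libraries, but 37 reads, or 3.84 CPM, in Ctrl 3. It had 2 to 10 reads under CM0, 3 to 5 under CM1 and 2 to 8 under CMA. Ctrl 3 was also the library richest in hair follicle transcripts, at 7904 CPM summed over 9 hair keratin and sheath genes, against 3.71 to 719 CPM in the other Ctrl libraries. The red cell membrane gene Epb42 had 3 reads in Ctrl 3 and no more than 4 in any library. The part of hair follicle in this value was not tested. The mean of Slc4a1 was 0.881 ± 0.204 CPM under CMC, against 0.923 ± 1.44 CPM in Ctrl. All 5 CMC libraries lay above its Ctrl median of 0.411 CPM, and 0 above every control.

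The division of globin reads between the copies had a narrow range while their total varied several-fold. Hba-a1 made up 70.2 ± 1.93% of alpha-globin reads over 24 libraries (SD), with a range of 64.9% to 73.3%, and binomial counting alone gives an SD of 2.33 percentage points at these depths. Hbb-bs made up 84.6 ± 2.23% of beta-globin reads (80% to 88.7%), where counting alone gives 1.54 points. Of the 50-base windows found in only 1 copy of a pair, 76.2% belonged to Hba-a1 among the alpha copies and 42% to Hbb-bs among the beta copies. For 100-base windows these shares were 69.2% for Hba-a1 and 42% for Hbb-bs. The part of copy-specific sequence in the split of the reads was not tested.

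Alpha globins made up 42.0 ± 2.52% of globin reads, from 34.2% in Ctrl 5 to 46.6% in CMA 5, with 1.61 points from counting alone, so this share and that of Hbb-bs spread more than counting gives. The group means of that share were 43.1% under CM0, 41.9% under CM1, 43.6% under CMA, 42.4% under CMC and 39.5% in Ctrl. Beside these shares, Alas2 reads per 100 globin reads ran from 4.90 in CMC 2 to 28.9 in Ctrl 5. They averaged 6.18 ± 1.19 under CMC and 13.1 ± 8.24 in Ctrl (SD), and the groups overlapped. Intervals from counting cover counting error only, since the libraries carry no molecular identifiers.

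**Figure D2:**
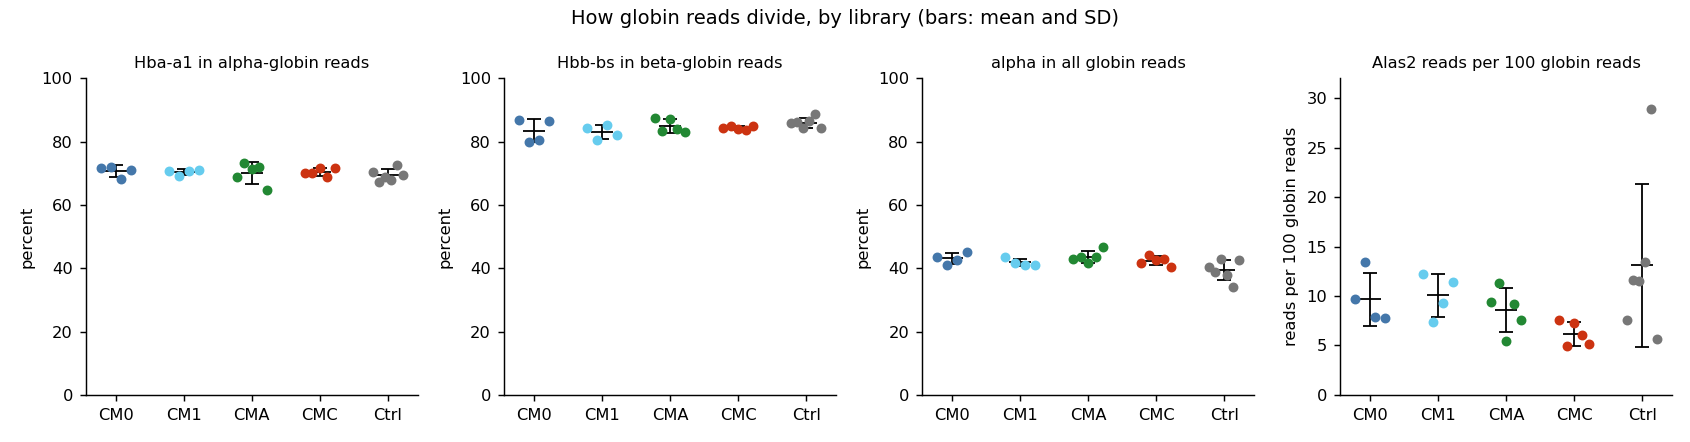
Share of Hba-a1 in alpha-globin reads, of Hbb-bs in beta-globin reads and of alpha in all globin reads (vertical axes in percent), and Alas2 reads per 100 globin reads, for each library by group; black bars are means with SD. The first 3 panels are nearly flat, at means of 70.2%, 84.6% and 42.0%, and the last reaches 28.9 in a single control.

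Spread between libraries set the globins apart from Alas2. From the lowest to the highest library Hba-a1 differed 7.71-fold, Hba-a2 8.77-fold, Hbb-bs 5.29-fold and Hbb-bt 7.31-fold, but Alas2 only 1.60-fold. The biological CV estimated by edgeR, within groups, was 0.353 to 0.403 for the globins and 0.130 for Alas2. The median over all tested genes was 0.155, and 90.2% to 93.4% of them had a lower value than the globins, against 38.7% below Alas2.

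The globins moved together from library to library. Pearson's r of log2 CPM was 0.973 between Hba-a1 and Hbb-bs, on different chromosomes and with no shared read-length sequence, and 0.982 between Hba-a1 and Hba-a2, which share reads. The 6 globin pairs had r from 0.925 to 0.982 and Spearman's rho from 0.910 to 0.976. Their permutation p was 1e-05, the smallest that 100000 permutations can give, and 2.5e-05 after Benjamini-Hochberg adjustment over 15 pairs of members. Without the 2 libraries farthest from the median of the gene on the x axis, r was 0.886 to 0.967, and with group means removed it was 0.919 to 0.981.

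Alas2 followed the globins loosely. Its r with them was 0.32 to 0.39 (adjusted permutation p 0.13 to 0.186), which did not pass. That call rested on Ctrl 5, where the globins were lowest and Alas2 was at 11.3 CPM. Without Ctrl 5 the 4 values were 0.54 to 0.55 with an adjusted permutation p of 0.0129. With group means removed they were 0.42 to 0.48 (adjusted permutation p 0.0369 to 0.0651). Slc4a1 had r of 0.19 to 0.28 with the other 5 members, and none passed (adjusted permutation p 0.244 to 0.377). Without Ctrl 3, where it had 37 reads, its r with Hba-a1 was 0.48 and passed (adjusted permutation p 0.039). Alas2 with Apex2 gave r of 0.36 and rho of 0.35, and Alas2 with Alas1, the housekeeping form of the enzyme, gave r of -0.01 and rho of 0.22. Neither passed, with adjusted permutation p of 0.252 and 0.968 over 3 relations chosen after the data were seen.

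**Figure D3:**
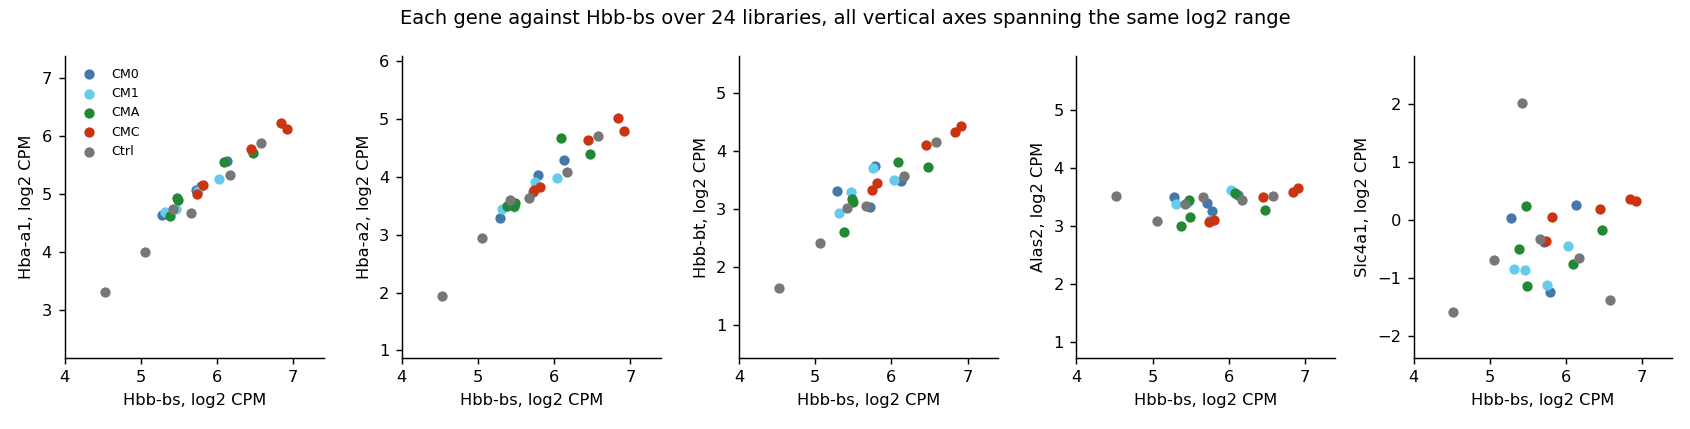
Log2 CPM of Hba-a1, Hba-a2, Hbb-bt, Alas2 and Slc4a1 (vertical axes of equal span) against that of Hbb-bs (horizontal axes), 1 point per library coloured by group. The first 3 panels form narrow bands with r of 0.973, 0.961 and 0.925, the Alas2 panel is nearly flat, and Slc4a1 is scattered with Ctrl 3 far above the rest.

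No member passed the test for any medium. With edgeR's quasi-likelihood test over all 24 libraries, 0 of the 5 members that passed the filter on low counts had an adjusted p under 0.05 in CM0, CM1, CMA or CMC against Ctrl, or in the mean of the 4 media against Ctrl. The background in each of these was 0 of 18978 genes (0%), so the members' count is that of the genome. The same count of 0 of 5 members, with 0% of genes, came from the 6 comparisons between media and the test of any difference among 5 groups. Slc4a1 failed the filter. DESeq2 called 0 of 6 members and limma voom 0 of 5 in each of the 12 comparisons, and over all genes they called 0 to 4 and 0. At an unadjusted p under 0.05, edgeR had 422 to 1788 genes per comparison, with 4 members in CMC against Ctrl, 1 in CM1 against CMC and 0 in the other 10.

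In CMC against Ctrl the 4 globins had an unadjusted p under 0.05, as did 1622 genes in all. That count of 4 fell to 0 without CMC 2, without CMC 5, or with only the CMC and Ctrl libraries in the fit, and to 2 without Ctrl 3, Ctrl 4 or Ctrl 5. DESeq2 called 4 genes there, none of them a member, and limma voom called 0. On the log2 scale Hba-a1 lay 0.85 above Ctrl, with an SE of 0.34, a 95% interval of 0.15 to 1.55 and an adjusted p = 0.556 in edgeR. Hbb-bt was at 0.81 (SE 0.32), Hba-a2 at 0.77 (SE 0.35) and Hbb-bs at 0.71 (SE 0.31), with adjusted p of 0.556 to 0.577 in edgeR. Alas2 was at -0.01 (95% interval -0.28 to 0.26). With the copies of each chain summed, which removes the question of which copy a read came from, alpha globin was at 0.83 (adjusted p = 0.562) and beta globin at 0.72 (adjusted p = 0.567) in edgeR. These 4 log2 fold changes are not separate evidence, since the genes varied together and the copies share reads.

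Single libraries of either group moved these values. Without CMC 2 the globins' log2 fold changes were 0.59 to 0.71, and without CMC 5 they were 0.55 to 0.73, with adjusted p of 0.567 to 0.899 in edgeR. Without Ctrl 6, the control with the most globin, the log2 fold changes were 0.96 to 1.17 with an adjusted p of 0.293 in edgeR. Without Ctrl 5, the control with the least, they were 0.55 to 0.67.

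The other media were closer to Ctrl. The globins' log2 fold changes were 0.03 to 0.25 under CM0, -0.06 to 0.19 under CM1, 0.12 to 0.31 under CMA, and 0.20 to 0.37 for the mean of the 4 media. Their SEs were 0.25 to 0.38, and every 95% interval held 0. The widest of these intervals ran from -0.81 to 0.79, for Hba-a2 under CM1, so for that gene a log2 fold change inside these bounds could not be told from 0. Alas2 was within -0.12 to 0.01 in all 5 comparisons with Ctrl, with intervals inside -0.39 to 0.30. All of these comparisons share the same 6 Ctrl libraries. Between media, the globins were at -0.62 to -0.79 in CM1 against CMC, where Hbb-bs was the 1 member with an unadjusted p under 0.05, as were 514 genes in all. With only the CM1 and CMC libraries in the fit, all 4 globins had one, and none passed (adjusted p = 0.999 in edgeR).

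**Figure D4:**
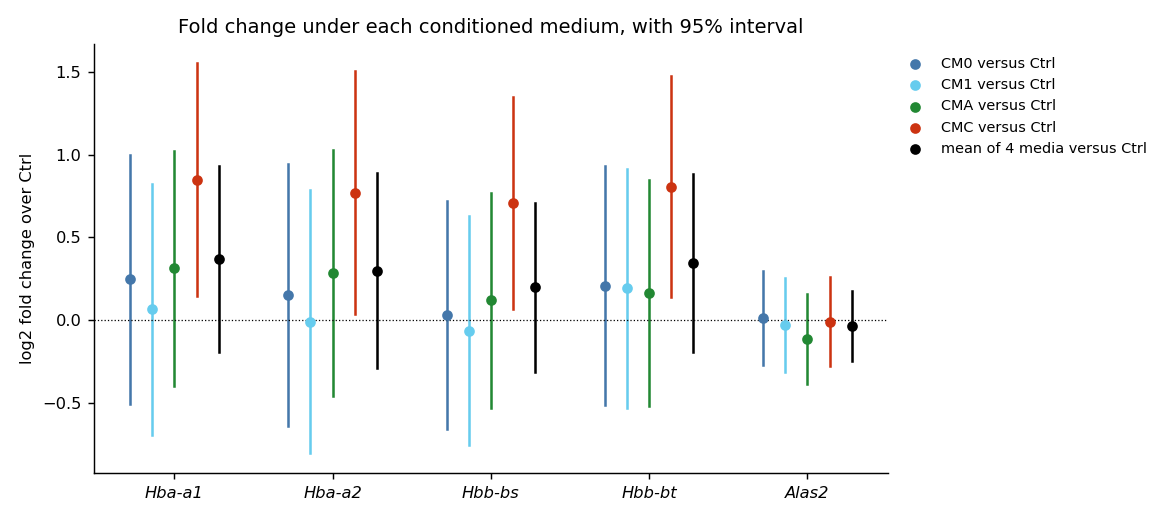
Log2 fold change over Ctrl (vertical axis) of the 4 globins and Alas2 under CM0, CM1, CMA, CMC and for the mean of the 4 media; points are edgeR estimates and lines 95% intervals. For the globins the CMC intervals are the ones that lie above 0 before adjustment, around estimates of 0.71 to 0.85, and no value passed after it.

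Slc4a1 could be fitted without the filter on low counts, and there 1 library set the direction. Its log2 fold change was -0.54 under CM0, -1.35 under CM1, -0.76 under CMA and -0.06 under CMC, and the lowest adjusted p was 0.79992 in edgeR. Without Ctrl 3, a setting chosen after seeing the data, it was 0.92, 0.10, 0.70 and 1.39 (lowest adjusted p 0.783 in edgeR).

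Hbb-bs was higher, in CPM, in more deeply sequenced libraries. Among 11 relations of Hbb-bs with cell type lists and depth, the one with total count alone passed, with r of 0.588 (permutation p 0.00293, adjusted p 0.0322). Spearman's rho was 0.57 (adjusted permutation p 0.0508), and with group means removed r was 0.728 (adjusted permutation p 0.00066). Without the 2 libraries farthest from the median of Hbb-bs, r was 0.456 (adjusted permutation p 0.184), so the call rests on such libraries. It was also lost when CMC 5, Ctrl 4, Ctrl 5 or Ctrl 6 was left out, where r was 0.52 to 0.54. Total counts averaged 9533072 under CMC and 9032770 in Ctrl, and their ranges overlapped. With log2 total count as a covariate, the CMC log2 fold changes of the globins were 0.60 to 0.78 and no member passed (adjusted p = 0.663 in edgeR). At an unadjusted p under 0.05, that edgeR fit had 4 members in CMC against Ctrl, as without the covariate. It had 4 in CMC against CM0 and 4 in CM1 against CMC, where the main fit had 0 and 1. In the test among 5 groups it had 4, and in CM1 against CMA 2, where the main fit had 0. Over all genes the fit with the covariate had 454 to 1673 per comparison.

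**Figure D5:**
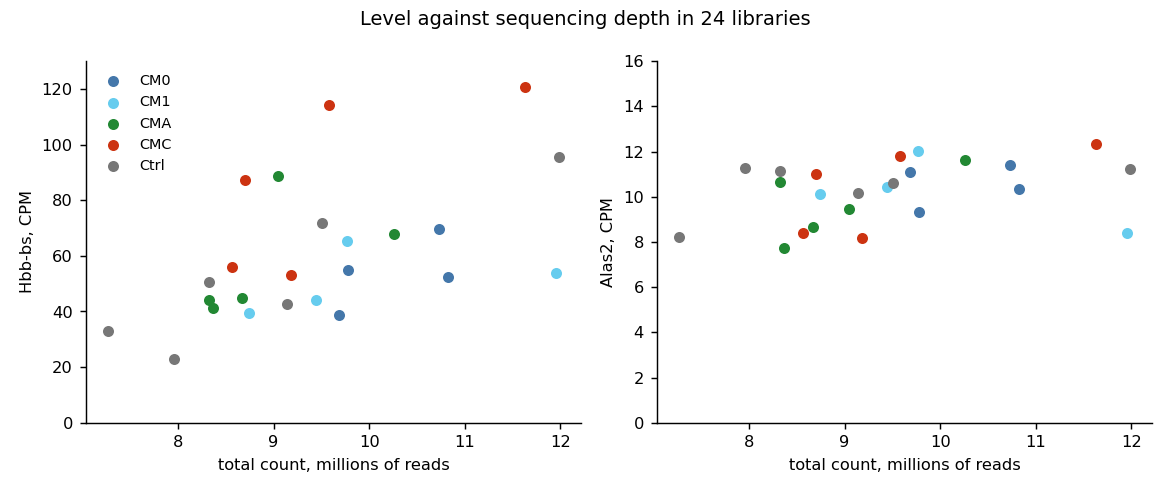
CPM of Hbb-bs and of Alas2 (vertical axes, from 0) against the total count of each library (horizontal axes), coloured by group. Hbb-bs is lowest in Ctrl 5, at 22.8 CPM, and highest in CMC 5, at 121 CPM, and Alas2 stays between 7.74 and 12.3 CPM across depths.

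The relations with 10 lists of cell type markers did not pass. Hbb-bs had r of 0.43 with the summed macrophage genes (adjusted permutation p 0.192), 0.40 with adipocyte genes (0.192), 0.36 with T and B cell genes (0.221) and 0.23 with platelet genes (0.606). With endothelium it had -0.07 (adjusted permutation p 0.834). The other lists, neutrophil, keratinocyte, fibroblast, skeletal muscle and hair follicle, had r from -0.17 to 0.16 (adjusted permutation p 0.693 to 0.834). Spearman's rho ran from -0.26 to 0.46, and none passed (adjusted permutation p 0.151 or more). Summed macrophage genes were at 2958 to 4649 CPM under CMC and at 2335 to 4043 CPM in Ctrl, and their part in the globin values was not tested.

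Genes of erythroid precursors were nearly silent. Gata1, the erythroid and megakaryocyte transcription factor, had 51 reads over all 24 libraries, and Klf1, an erythroid factor that acts on the adult beta globin gene, had 168. Hemgn had 13 reads, Car1, a carbonic anhydrase of red cells, 11, and Trim58 3. Of the embryonic globins, Hba-x had 0 reads and Hbb-y 2. Of 26 erythroid factors and late erythroid genes, 25 were found by symbol, 17 passed the filter and 5 averaged at most 1 read. Most of those that passed are also used by other cells, such as Ldb1 (126 ± 10.4 CPM), a transcription cofactor, and Prdx2 (117 ± 12.3 CPM), a peroxide-removing enzyme.

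Lists of red cell and iron genes were read in CMC against Ctrl, the comparison with the largest globin values, and 0 of 148 genes of 15 lists passed there or in any other comparison with Ctrl. Of the 12 heme synthesis genes, 6 had a log2 fold change above 0, with a median of 0.00027. Fech, whose enzyme inserts iron to form heme, was at 0.05. Of the 12 red cell membrane genes tested, 4 were above 0 (median -0.11), and of the 17 erythroid genes 9 were (median 0.01). Over all tested genes, 48.4% were above 0, with a median of -0.01.

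Of the 20 genes of hemoglobin clearance and iron handling, 17 were above 0 (median 0.16), and 3 had an unadjusted p under 0.05, against 1622 of 18978 tested genes. The 3 were Trf, the iron carrier transferrin (0.40), Nfe2l2, a stress-response transcription factor (0.24), and Bach1, a repressor that heme inactivates (0.24), with adjusted p of 0.547 to 0.562 in edgeR. Cd163, the macrophage receptor for haptoglobin bound to hemoglobin, averaged 167 ± 71.8 CPM under CMC and 106 ± 59.7 CPM in Ctrl (SD), which is 0.65 higher on the log2 scale with an SE of 0.36 and an adjusted p = 0.634 in edgeR. Hp, haptoglobin itself, averaged 451 ± 159 CPM under CMC and 302 ± 116 CPM in Ctrl, at 0.58 (SE 0.29, adjusted p = 0.611 in edgeR). Hmox1, the inducible heme oxygenase that opens the heme ring, was at 0.32, Slc40a1, which exports iron from cells, at -0.29, and Hpx, the heme carrier hemopexin, at -0.57 (SE 0.32, adjusted p = 0.639 in edgeR). These 5 genes were chosen after their values were seen. Under CM0, CM1 and CMA the list had 7, 13 and 8 of 20 genes above 0.

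The remaining lists had the following medians in CMC against Ctrl. They were 0.19 for 10 macrophage genes (9 above 0), 0.10 for 7 platelet genes, 0.04 for 16 endothelial genes, -0.06 for 8 neutrophil genes and -0.26 for 7 T and B cell genes. Keratinocyte genes were at -0.01 (8 tested), fibroblast genes at 0.20 (8), skeletal muscle genes at -0.47 (10), adipocyte genes at 0.49 (6), hair follicle genes at -5.32 (5) and the other globins at 0.08 (2). Summed hair follicle genes were at 4.89 to 118 CPM under CMC and, outside Ctrl 3, at 3.71 to 719 CPM in Ctrl.

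Few genes had a pattern like that of the globins. Against the mean log2 CPM of the 4 globins over 24 libraries, 7 of 18966 tested genes had r above 0.7 and 3 below -0.7, and each globin had 0.95 to 0.987 with the mean of the other 3. Without Ctrl 5, the library with the least globin, 1 of those 7 (Cnrip1, 0.749) was still above 0.7. The others were at 0.58 to 0.697, so whether they pass 0.7 depends on that library. Among the 10 highest were Tank (0.763), Cnrip1 (0.743), Prkg2 (0.729), Lamtor2 (0.727), Cxcl13 (0.707), Fgl2 (0.703), Eps15 (0.703), Flot2 (0.697) and Lamtor1 (0.695). The 5 lowest were Gm38120 (-0.774), Agbl5 (-0.772), C130083A15Rik (-0.728), 1810026B05Rik (-0.683) and Gm31597 (-0.669). These genes were ranked out of all tested ones, and the libraries share their depths, so the values are a description. Tank, an adaptor of NF-kB signalling, ran from 32.4 to 43.9 CPM, a much narrower range than the globins. Cxcl13, a B cell attracting chemokine, ran from 0.448 to 3.29 CPM. Lamtor1 and Lamtor2 encode subunits of the same lysosomal complex, Ragulator.

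Alas2 ranked 1727 among the same genes, with r of 0.355. Among the lists, r above 0.5 was reached by 3 of 20 hemoglobin clearance and iron genes, with Cd163 highest at 0.628. It was also reached by 1 of 10 macrophage genes (C1qa, 0.559) and 1 of 8 fibroblast genes (Dcn, 0.547). Of the 2 other globins, Cygb, which encodes cytoglobin, reached it (0.535). The lists were mixed, with r from -0.391 to 0.628 for clearance and iron genes (median 0.294). For macrophage genes r ran from -0.146 to 0.559 (median 0.378) and for fibroblast genes from -0.182 to 0.547 (median 0.205). Without Ctrl 5, Cd163 (0.591) and C1qa (0.556) stayed above 0.5, but Dcn was at 0.423 and Cygb at 0.433. Bach1 (0.539), Csf1r (0.544) and C1qc (0.51) then lay above it, so which list genes pass 0.5 depends on that library. C1qa, C1qc and Dcn were chosen after their values were seen. No tested gene of the heme synthesis, red cell membrane or erythroid lists reached 0.5, and the highest of these was Fech at 0.481 (0.324 without Ctrl 5). Over all genes 1.87% had r above 0.5, with a median of 0.00346.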

How the data were processed

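RNA of 24 day 10 wounds was depleted of ribosomal RNA and made into libraries with a kit that does not mark the strand, per the labels' protocols; the sources used here name no globin depletion step. The authors deposited raw counts, 1 table of 54232 Ensembl genes per library. The submitters' processing notes name bcl2fastq 2.17, FastQC, cutadapt, STAR, featureCounts, DESeq2 and GRCm38, without annotation release, strand setting or treatment of multi-mapping reads. Symbols and positions came from GENCODE M21 and promoters from RefSeq GRCm38.p6.

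Counts were fitted with edgeR 4.0.16 (R 4.3.3): default filterByExpr, TMM, 1 mean per group, robust quasi-likelihood test, and Benjamini-Hochberg adjustment over 18978 genes (threshold 0.05). Log2 CPM used a prior count of 2. Correlations used two-sided permutation tests with 100000 resamples in numpy 2.4.6, with ranks from scipy 1.17.1. DESeq2 1.42.0, limma 3.58.1 and other alternatives are given in the closing section. The fits and correlations were tested on simulated data. Simulated counts for the edgeR fit gave every gene the same spread, smaller than that of the globins. They do not show whether a globin difference of the size seen here would be called. Named genes are the members, the 3 most abundant of each list, and the 10 most and 5 least alike. Gata1, Klf1, Epb42, Hbb-bh1, Apex2, Trf, Nfe2l2 and Bach1 were named outside this rule. Any other is said to be chosen after its values were seen or belongs to a count of genes near 0. The members and 15 lists (186 of 187 symbols matched) were chosen with earlier results of these data known. A few genes that the rule names are not reported here.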

Additional observations from a re-analysis of the deposited data

Results flagged for a closer look

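In 45 sets of values (6 genes and 3 globin shares in 5 groups) 3 held a library far from the others of its group, and chance gives about 1 in 20. Alas2 in Ctrl 4 was at 8.24 CPM, against 10.2 to 11.3 CPM in the other 5 Ctrl libraries. Slc4a1 in Ctrl 3 was at 3.84 CPM, against 0.121 to 0.585 CPM in the other 5, and it reverses the direction of that gene in every comparison with Ctrl. The share of Hba-a1 in alpha-globin reads was 69.0% in CM1 2, against 70.7% to 71.0% in the other 3 CM1 libraries, a gap smaller than the SD that counting gives.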

How the results depend on the processing

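No fit called a member: 0 in each of the 12 comparisons under each other fit and without each library in turn, except that the fit with only the groups compared covers the 10 pairs of groups. No paired analysis was possible because the labels carry no replicate number and the numbers used here only name libraries. Member pairs that passed numbered 6, but 10 without the 2 libraries farthest on the x axis and 6 to 10 without 1 library (10 without Ctrl 5). Relations of Hbb-bs with lists and depth that passed numbered 1, but 0 without the 2 farthest and 0 to 1 without 1 library. Values of small size changed sign, and so did larger ones of Slc4a1, which rest on Ctrl 3. With log2 total count as a covariate, CM0 against Ctrl was -0.0769 for Hba-a1, -0.18 for Hba-a2, -0.29 for Hbb-bs, -0.0688 for Hbb-bt and -0.0601 for Alas2, and CM1 against Ctrl was -0.12 for Hba-a1 and -0.0280 for Hbb-bt. Under CM1, Hba-a2 was at 0.0011 with DESeq2 and 0.37 with limma voom, and Hbb-bs at 0.16 with limma voom. Slc4a1 without Ctrl 3 was at 0.92, 0.10, 0.70, 1.39 and 0.78 for CM0, CM1, CMA, CMC and their mean. Without the 2 farthest, r turned to -0.0172 for Hba-a2 and -0.0703 for Hbb-bt with Slc4a1, and for Hbb-bs to 0.0424 with endothelium, -0.0356 with fibroblast and -0.0588 with skeletal muscle genes; with group means removed it was -0.0190 with fibroblast genes. Without 1 library, Alas2 ran from -0.0446 to 0.0646 under CM0, -0.117 to 0.0470 under CM1 and -0.0859 to 0.0615 under CMC, Hba-a1 from -0.11 to 0.39 under CM1, Hba-a2 from -0.0403 to 0.47 under CM0 and -0.20 to 0.31 under CM1, Hbb-bs from -0.13 to 0.28 under CM0, -0.22 to 0.19 under CM1 and -0.0925 to 0.37 under CMA, and Hbb-bt from -0.0164 to 0.49 under CMA. Ctrl 5 and Ctrl 6 gave most of these ends. Also without 1 library, r of Hbb-bs ran from -0.18 to 0.0224 with endothelium, -0.0162 to 0.17 with fibroblast, -0.28 to 0.0319 with keratinocyte and -0.0277 to 0.18 with skeletal muscle genes. The cause was not tested. Depth limits Slc4a1, with 1 to 12 reads outside Ctrl 3, and the split of copies.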

Other observations

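Globins outside red cells were detected in every library. Mb, which encodes the myoglobin of muscle, averaged 81.3 ± 42.1 CPM over 24 libraries (SD), with a range of 31.4 to 172 CPM, and Cygb averaged 88.4 ± 15.0 CPM, with a range of 64.2 to 123 CPM. The other 7 genes of that list did not pass the filter on low counts, and 5 of them averaged at most 1 read. Hbb-bh1, an embryonic beta-like globin, had 55 reads in all, in 15 of 24 libraries and at most 11 in any.

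Of the red cell membrane genes, Aqp1, a water channel of red cells and of endothelium, averaged 110 ± 23.5 CPM. The most abundant genes of hemoglobin clearance and iron were Lrp1, a receptor that also takes up heme bound to hemopexin, at 3396 ± 562 CPM (range 2483 to 4770), and the ferritin chains Fth1 (865 ± 175 CPM) and Ftl1 (696 ± 119 CPM).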
